A study of Mus musculus with 21 samples.

Results

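Tumours grown from the mouse mammary carcinoma line Py8119 were compared with the same line in culture, over every gene that could be assigned to a probe set. The comparison used 8 of the 21 arrays of the series, 5 from Py8119 tumours and 3 from Py8119 cultures, chosen by their titles. The line comes from clones of MMTV-PyMT mice, in which a mammary promoter drives the polyomavirus middle T oncogene. Cultures were grown in Ham's F12K medium with 5% serum. Tumours came from 1000000 cells placed in mammary fat pad 4 in a mix of saline and matrigel. Neither cells nor tumours were treated, and tumours were collected on the day on which irradiation would usually have been given. The series sets Py8119, described there as resistant to radiation, beside the sensitive line Py117, whose 5 tumours and 3 cultures serve below as a reference. The labels give no strain, sex or age of the hosts. They call the samples biological replicates, and p-values measure the spread between these samples.

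A cell line in a dish and a tumour differ in the cells they hold as well as in the state of the cancer cells. A tumour contains macrophages, fibroblasts, vessels and lymphocytes of the host, which bring RNA that the culture cannot have. Macrophages depend on the growth factor CSF1 and its receptor CSF1R, engulf debris and make complement C1q. Fibroblasts lay down collagen and proteoglycans. Cancer cells that leave rich medium often divide less and make fewer ribosomes. In whole tumour RNA, fewer cells of a type and less RNA per cell cannot be told apart, and neither can RNA of host cells and RNA newly made by Py8119 cells.

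The deposited values are log2 signals, so a difference of 1 is a 2-fold change. Array medians over genes ran from 5.65 to 5.83 in cultures and from 5.93 to 5.98 in tumours. Arrays correlated with r between 0.984 and 0.989 within cultures, between 0.990 and 0.994 within tumours, and between 0.942 and 0.954 across these groups. The spread was alike in both groups, with a median gene SD of 0.153 in cultures and 0.150 in tumours. The labels give no batch, and a batch that followed the sample type cannot be told apart from it.

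Of 22180 genes, 3606 were called higher in tumours and 4628 lower (limma, adjusted p under 0.05), which is 16.3% and 20.9% of all genes and 37.1% together. The large changes ran the other way. At least 2-fold, 1082 genes were higher (4.88%) and 475 lower (2.14%). The median difference over all genes was -0.05. Centring every array on its median lowered the median difference to -0.26, a shift of -0.21, and 2358 genes were then higher and 9046 lower. The rises and falls below are larger than that shift unless their values say otherwise.

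Genes were sorted by their signal in culture. Olfactory and vomeronasal receptors, which mammary cells are not known to use, served as a measure of background: 95% of the values of 1394 such genes in the cultures were under 5.41. A gene under 5.41 in all 3 cultures was taken as at background there, and a gene at or above it in all 3 as expressed. Syngr3 lay just inside the background class, with its nearest culture at 5.41, and Kcnv1 just outside, also at 5.41. The class was set with culture values of the same contrast, so the counts by class are a description. Of 7097 genes at background in culture, 771 were higher in tumours (10.9%) and 584 lower (8.23%), or 332 and 19 at 2-fold. Without culture 3 the 584 became 378. Of 11522 expressed genes, 2321 were higher and 3743 lower, or 522 and 437 at 2-fold. Another 2167 genes lay between the classes, with 483 higher and 82 lower. The receptor genes themselves were called higher 31 times and lower 219 times, with a median difference of -0.18. A stricter class, added after the data were seen, held the 6539 genes at or above 7.41 in all 3 cultures. Of these clearly expressed genes, 998 were higher (15.3%) and 2949 lower (45.1%), with a median difference of -0.22.

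**Figure D1:**
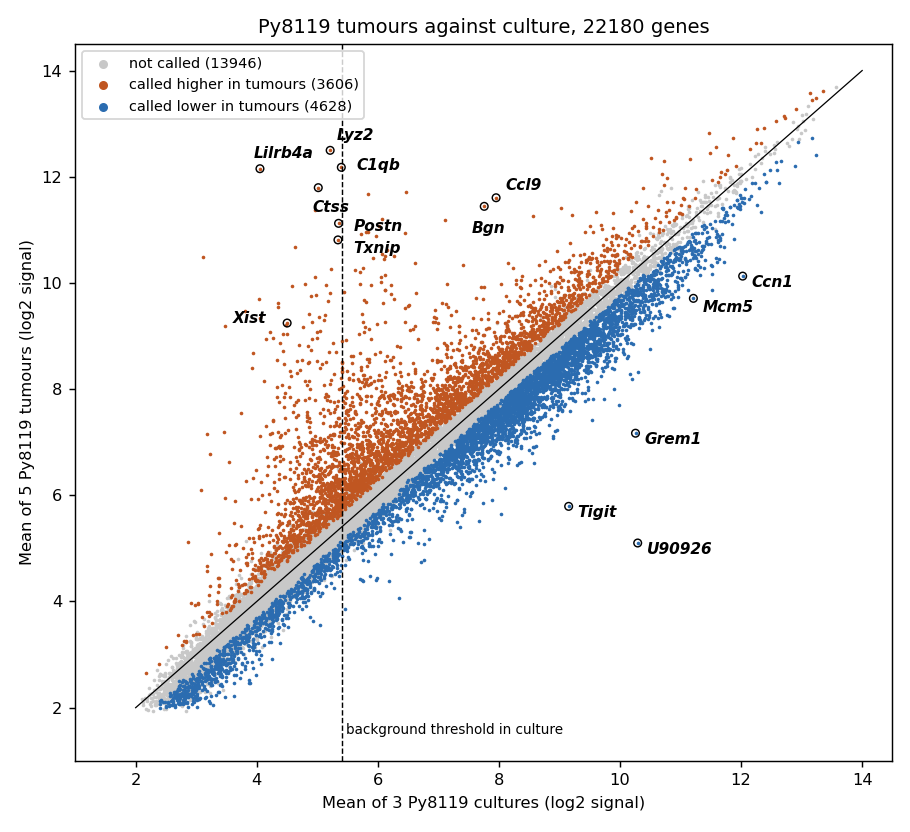
Mean log2 signal of 22180 genes in 3 Py8119 cultures (horizontal axis) and 5 Py8119 tumours (vertical axis), coloured by the limma call; the diagonal marks equal signal and the dashed line the background threshold of 5.41. Genes near or under the threshold in culture reach 12 in tumours, whereas most genes above 8 in culture that were called lie under the diagonal.

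The largest rises were in macrophage genes. Of the 28 measured genes of the macrophage and monocyte list, 27 rose, with a median difference of 4.48 over the list. Marco, a scavenger receptor of certain tissue macrophages, was not called (-0.42 ± 0.17). It was called lower after centring on the median (-0.63, adjusted p = 0.00797), after quantile normalization (-0.56, adjusted p = 0.0321), in the fit of all 21 arrays (adjusted p = 0.0433) and without tumour 1 (-0.50, adjusted p = 0.0435). Of the 28, 11 were at background in culture, 8 between and 9 in the expressed class, but none was clearly expressed. The mean of the list was 5.38, 5.17 and 5.50 in the cultures and 9.59, 9.47, 9.46, 9.39 and 9.38 in the tumours, so each tumour stood far above each culture and the tumours were close to each other.

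Lilrb4a, an inhibitory receptor of myeloid cells, had the largest rise among genes at background in culture. It read 4.64, 3.59 and 3.94 in the cultures and 12.21, 12.22, 12.06, 12.01 and 12.25 in the tumours, a difference of 8.10 ± 0.20 (SE, 3 and 5 arrays; adjusted p = 2.69e-09). The tumours differed by less among themselves than the cultures did. The lysosomal protease gene Ctss read 4.95, 5.15 and 4.96 in the cultures and 11.71, 11.71, 11.78, 11.86 and 11.91 in the tumours (6.78 ± 0.09). Lyz2, which encodes lysozyme, went from 5.16, 4.19 and 6.29 to 12.48, 12.51, 12.57, 12.52 and 12.41 (7.28 ± 0.35). C1qb, a chain of complement C1q, went from 5.02, 4.72 and 6.45 to 12.39, 12.32, 12.14, 11.94 and 12.09 (6.78 ± 0.32). For Lyz2 and C1qb the cultures were spread widely around the threshold, with culture 3 the highest, and all tumours lay above 11.9.

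The surface markers moved in the same direction. Adgre1, the classical surface antigen of mouse macrophages, read 4.73, 3.94 and 5.06 in the cultures and 10.10, 10.01, 9.94, 9.97 and 9.71 in the tumours (5.37 ± 0.21, adjusted p = 7.10e-08). The scavenger receptor Msr1 read 3.94, 4.47 and 4.63 and then 9.68, 9.65, 9.70, 9.50 and 9.59 (5.28 ± 0.14). The CSF1 receptor gene Csf1r read 5.94, 6.24 and 6.13 and then 10.79, 10.55, 10.42, 10.25 and 10.23 (4.34 ± 0.14). Its cultures were a little above the threshold, which puts Csf1r in the expressed class by rule although it lies more than 1 log2 unit under the clearly expressed level. Cd68, a lysosomal glycoprotein of macrophages, rose by 4.48, the integrin chain Itgam by 4.85 and Tyrobp, an adaptor of activating receptors, by 4.34. Ptprc, the CD45 gene of all white blood cells, was on no list and was chosen after its values were seen. Ptprc rose by 4.61 ± 0.29.

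The other genes that led the background class were again myeloid. They were Ms4a6d (7.38), Fcrls (6.4), Ly86 (6.05), Ccl12 (5.72), Ms4a6b (5.67), Ms4a6c (5.66), Ms4a4a (5.28), Clec4n (5.19), Ms4a7 (5.18), Pld4 (5.15) and Mpeg1 (4.87). The Ms4a genes encode small membrane proteins of one cluster, Ccl12 a chemokine that attracts monocytes, and Mpeg1 the pore protein perforin-2. In none of these genes did a tumour overlap a culture, as the rule for naming them required (16.7% of all genes were higher without overlap). Rises that led the expressed class came from culture levels between 5.43 and 6.70, near the threshold. These included Tgfbi (5.84), the Fc receptor genes Fcer1g (5.25) and Fcgr2b (5.14), the coagulation factor gene F13a1 (5.19) and the mannose receptor gene Mrc1 (5.06). Lcp1 (4.91), Alox5ap (4.55), Igsf6 (4.50), Fcgrt (4.47), C1qa (4.48) and C1qc (4.38) followed. Tgfbi is a matrix protein that macrophages and fibroblasts secrete, and Lcp1 bundles actin in white blood cells.

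**Figure D2:**
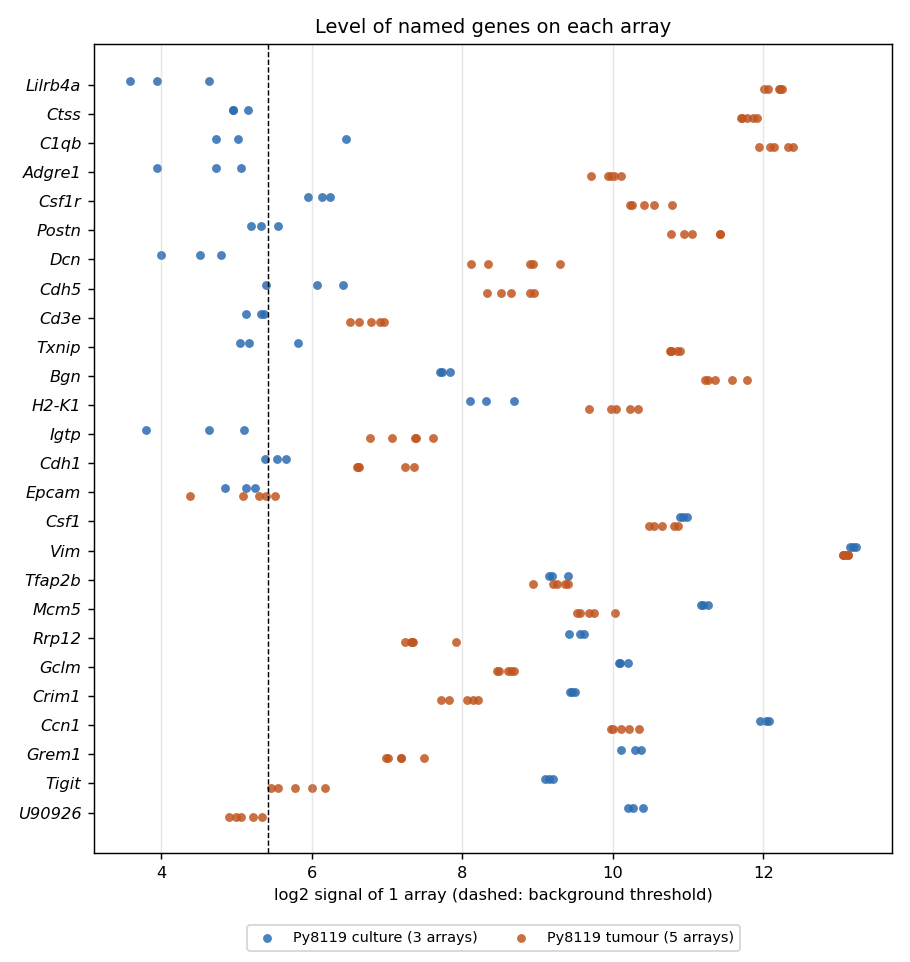
Log2 signal of 26 named genes on each of 3 Py8119 cultures and 5 Py8119 tumours, 1 point per array, with the background threshold dashed. Macrophage genes such as Lilrb4a lie near 12 in every tumour; Epcam and Tfap2b overlap between the groups; U90926 falls from above 10 to about 5.

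Genes by which macrophage states are told apart did not all rise. Of 18 measured, 14 rose, 1 fell and the median difference was 1.95. The folate receptor gene Folr2 rose by 4.61, the platelet factor gene Pf4 by 4.47 and Arg1, the arginase of alternatively activated macrophages, by 4.40. Arg1 read 5.04, 5.34 and 5.93 in the cultures and 9.61, 9.82, 9.66, 9.91 and 10.17 in the tumours. Lyve1, a hyaluronan receptor of lymphatic vessels and of some tissue macrophages, read 5.10, 4.65 and 5.25 and then 8.63, 8.05, 7.57, 9.63 and 8.80 (3.53 ± 0.38). Tumour 4 was the highest for Lyve1 and tumour 3 the lowest, more than 2 log2 units apart. Gpnmb, a glycoprotein of lipid-laden macrophages that Py8119 cells also showed in culture, fell by 0.86. Retnla, a marker of alternative activation, was not called, with tumours at 5.16, 3.94, 3.86, 6.27 and 5.74. Nos2, the inducible nitric oxide synthase of classical activation, was not called either (0.09 ± 0.11).

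Lymphocyte genes changed less. In the T cell list 7 of 16 measured genes rose, none fell, and the median difference was 0.30. Il7r, the interleukin 7 receptor, read 3.72, 3.98 and 4.56 in the cultures and 5.73, 5.76, 6.11, 6.18 and 6.24 in the tumours (1.92 ± 0.19). The T cell receptor chain genes Cd3e and Cd3g rose by 1.48 and 0.86, and the coreceptor gene Cd4 by 0.65. The highest tumour read 6.96 for Cd3e and 5.81 for Cd4, so that Cd4 stayed close to the threshold. In the cytotoxic and natural killer list 14 of 18 rose, with a median of 0.95. The receptor gene Klrd1 rose by 2.56, the chemokine gene Xcl1 by 2.53, and the granzyme genes Gzma and Gzmb by 2.26 and 2.02. For Xcl1, Gzma and Gzmb tumour 1 was the lowest and tumour 3 the highest. Eomes, a transcription factor of these cells, fell by 0.54 from a culture level above the threshold. The B and plasma cell list had 4 of 14 higher, all weakly: Bank1 (0.55), Cd22 (0.52), Cd79b (0.39) and Blk (0.37). Cd79b and Blk each lost the call without any 1 of 6 arrays, for example without culture 3 (0.40, adjusted p = 0.0941, and 0.27, adjusted p = 0.171). Leaving out culture 3, tumour 1 or tumour 4 cut that count to 2, centring on the median left 1 higher and 2 lower, and 9 of the 14 genes stayed under the threshold in the mean of the tumours.

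Among other white blood cells, 11 of 17 dendritic cell genes rose and 2 fell (median 0.84). The integrin gene Itgax, shared with macrophages, rose by 2.25, the transcription factor gene Irf8 by 2.11 and the chemokine receptor gene Ccr7 by 1.56. Tlr3, a receptor for double-stranded RNA that the cultures expressed, rose by 1.28. The endocytic receptor gene Ly75 and the actin bundler gene Fscn1, both clearly expressed in culture, fell (-0.77 and -0.45). In the neutrophil list 10 of 18 rose and none fell (median 0.86), led by Clec4e (2.42), Mmp9 (2.25), Trem1 (2.04) and Cxcr4 (1.82), which macrophages can express as well. Of these 18, 8 stayed under the threshold in the mean of the tumours, and after centring on the median 2 were lower. In the mast cell and eosinophil list 5 of 12 rose, and 8 stayed under the threshold in the mean of the tumours. The mast cell protease gene Cpa3 read 4.64, 4.91 and 4.64 in the cultures and 6.30, 7.47, 7.56, 7.06 and 6.17 in the tumours, highest in tumours 2 and 3. The rest were Cma1 (0.72), Kit (0.70), Siglecf (0.66) and Mcpt4 (0.53). Mcpt4 lost its call without culture 2 (difference 0.37, adjusted p = 0.0503), and in the fit of all 21 arrays neither Cma1 (adjusted p = 0.181) nor Mcpt4 (adjusted p = 0.453) was called.

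Stroma formed the next group. Of 21 measured fibroblast genes, 15 rose and 2 fell, with a median of 1.64. Postn, a matrix protein of activated fibroblasts, read 5.19, 5.32 and 5.54 in the cultures and 11.05, 10.77, 10.95, 11.42 and 11.43 in the tumours (5.77 ± 0.16, adjusted p = 8.11e-09). Ogn, a small leucine-rich proteoglycan, went from 6.00, 5.51 and 5.98 to 10.86, 10.86, 11.01, 10.99 and 11.06 (5.12 ± 0.12). Dcn, the proteoglycan decorin, went from 4.00, 4.79 and 4.52 to 8.12, 8.34, 8.90, 9.30 and 8.94 (4.28 ± 0.27). Ogn was even across tumours, whereas Dcn spread over more than 1 log2 unit, lowest in tumour 1 and highest in tumour 4. The fibroblast list members that fell were the transcription factor gene Twist2 (-1.98) and Fbln1 (-0.33). Fbln1 lost its call without culture 1 (difference -0.25, adjusted p = 0.12) and without culture 3, tumour 1, tumour 2 or tumour 3.

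In the collagen list 15 of 24 rose and 4 fell (median 0.53), and the main chains of the basement membrane were among those that fell. The share that fell was no higher than the 20.9% of all genes called lower, whereas 16.3% of all genes were called higher. Col1a1, a chain of type I collagen, read 6.53, 5.52 and 6.28 in the cultures and 9.63, 9.50, 9.44, 10.87 and 9.95 in the tumours (3.76 ± 0.33). Col3a1 rose by 2.47, Col1a2 by 2.29 and Col12a1 by 2.06. Col4a1, a chain of the type IV collagen of basement membranes, read 8.98, 8.72 and 8.96 and then 7.76, 7.44, 7.96, 8.04 and 7.39, a difference of -1.17 ± 0.16. Its partner Col4a2 fell by 1.48 ± 0.12, with no overlap for either gene (21.5% of all genes were lower without overlap). The other chains of type IV collagen did not follow: Col4a6 rose by 0.59, Col4a5 rose by 0.38, and Col4a3 (-0.07) and Col4a4 (0.10) were not called. The call of Col4a5 ended without any 1 of 6 arrays, for example culture 3 (0.30, adjusted p = 0.134). Col8a1 (-0.59) and the anchoring fibril collagen Col7a1 (-0.33) fell as well, although Col8a1 was not called in the fit of all 21 arrays (adjusted p = 0.145). Col7a1 lost its call without culture 1 (-0.27, adjusted p = 0.11) and without tumour 1, tumour 2 or tumour 3.

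Of 30 matrix glycoproteins and proteoglycans, 20 rose and 4 fell (median 1.31). Over all genes 16.3% rose and 20.9% fell, so falls were no more frequent in this list. Beside Postn, Ogn and Dcn, asporin (Aspn) rose by 4.47. The 4 that fell were Fbln1 and the laminin genes Lama5 (-1.2), Lamb1 (-0.43) and Lamc1 (-0.27), whose products also belong to basement membranes. The call of Lamc1 ended without any 1 of 6 arrays, for example culture 3 (-0.24, adjusted p = 0.124). Without culture 1, culture 3, tumour 2 or tumour 3 only 2 of the 30 were called lower. Of 25 genes of matrix processing, 14 rose and 5 fell, a share of falls near the 20.9% of all genes. Mmp2, a gelatinase of stromal cells, read 5.70, 5.82 and 5.72 in the cultures and 9.07, 9.24, 9.64, 9.73 and 9.38 in the tumours (3.67 ± 0.15). Mmp12, the macrophage elastase, rose by 2.26 and Lox, which crosslinks collagen, by 1.75. The 5 that fell were the protease inhibitor genes Timp1 (-0.79) and Timp2 (-0.38), Loxl4 (-0.82), P4ha2 (-0.80) and Mmp10 (-0.66). Mmp10 lost its call without culture 1 (-0.45, adjusted p = 0.068) and without culture 3 (-0.63, adjusted p = 0.054).

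Most vessel genes rose. In the endothelial list 16 of 20 rose, none fell and the median was 1.03. Cdh5, the cadherin of endothelial junctions, read 6.06, 5.38 and 6.41 in the cultures and 8.51, 8.33, 8.90, 8.95 and 8.64 in the tumours (2.71 ± 0.22). Cd34 rose by 2.56, the sialomucin gene Emcn by 2.51 and Eng, a coreceptor for TGF-beta, by 2.24. Cd34, Cdh5 and Emcn had their lowest values in tumours 1 and 2. In the pericyte and smooth muscle list 7 of 12 rose, with Rgs5 at 3.81, the PDGF receptor gene Pdgfrb at 3.18, Acta2 at 1.91 and Mcam at 1.60. Of 7 lymphatic genes 4 rose: Lyve1, Itga9 (0.89), Pdpn (0.72), which Py8119 cells already expressed, and Flt4 (0.35). Flt4 lost its call without culture 2 (0.30, adjusted p = 0.055). After centring on the median 3 of the 7 were lower. Mmrn1 fell by 0.37, a call that ended without culture 1 (-0.28, adjusted p = 0.13) and without culture 2, tumour 1, tumour 2 or tumour 3.

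The lists of skeletal muscle and epithelium had 1 rise between them. Over all genes 16.3% rose and 20.9% fell, and the shares of these lists were below both. Of 15 adipocyte genes 4 rose: the fatty acid binding protein gene Fabp4 (2.10), the carbonic anhydrase gene Car3 (1.86), Lpl (1.43) and Retn (0.79). Car3 lost its call without culture 1 (1.65, adjusted p = 0.062), and Retn without culture 1 (0.78, adjusted p = 0.064) or culture 2 (0.68, adjusted p = 0.083). In the fit of all 21 arrays neither Car3 (adjusted p = 0.192) nor Retn (adjusted p = 0.291) was called. With the mean of its probe sets Car3 was not called either (0.98, adjusted p = 0.0728). Tumour 4 was the highest for Fabp4, Car3 and Retn, while Adipoq, the adiponectin gene that defines fat cells, was not called (0.28 ± 0.26) and read 4.53, 4.49, 4.53, 5.47 and 4.56 in the tumours. No skeletal muscle gene rose among 15, and Myh1 fell by 0.73 within the background range. Of 7 nerve genes, Cdh19 rose by 1.06 and Pmp22 by 0.79. In the epithelial list 1 of 18 rose, 2 fell and 10 stayed under the threshold in the mean of the tumours. Cdh1, the cadherin of epithelial junctions, read 5.38, 5.66 and 5.54 in the cultures and 6.63, 6.61, 6.60, 7.36 and 7.24 in the tumours (1.36 ± 0.20, adjusted p = 0.000358), and tumours 4 and 5 were higher than the other three. Epcam, which defines epithelial cells, read 4.84, 5.13 and 5.25 in the cultures and 4.38, 5.39, 5.51, 5.09 and 5.30 in the tumours, where tumour 3 alone passed the threshold and the groups overlapped. The keratin gene Krt18 (-0.67) and Esrp1 (-0.25), a splicing regulator of epithelia, fell. With the mean of its probe sets Krt18 was not called (-0.34, adjusted p = 0.185). Without culture 2 the list had 2 rises, and after centring on the median 5 of its genes were lower. The call of Esrp1 was lost without any 1 of 7 of the 8 arrays, for example without culture 1 (-0.23, adjusted p = 0.12).

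**Figure D3:**
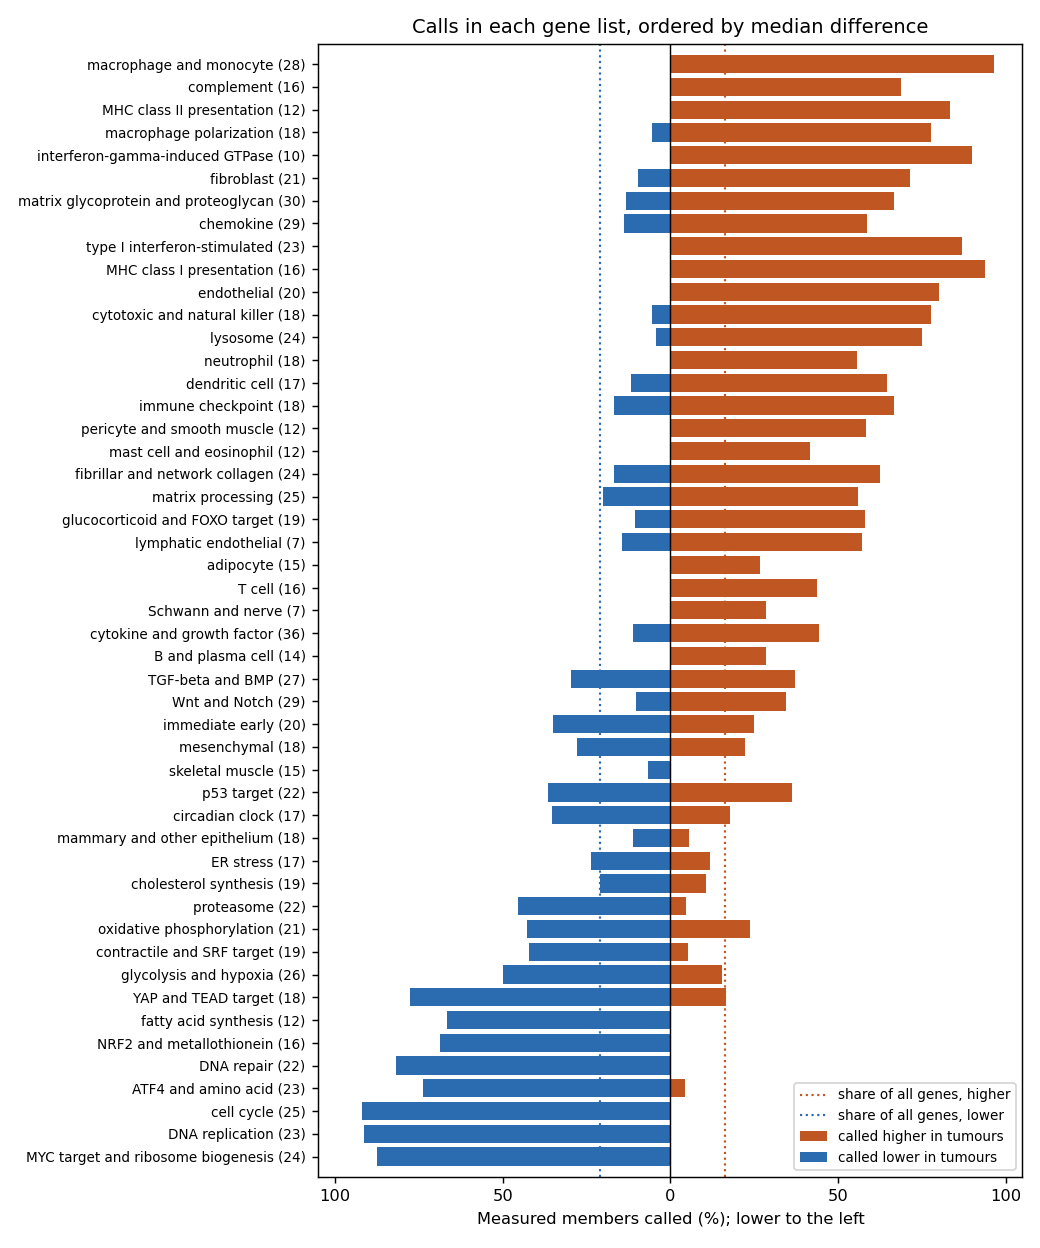
Share of the measured members of each gene list called higher (right) or lower (left) in Py8119 tumours than in culture, ordered by the list's median difference, with the number measured in brackets; dotted lines mark the shares over all 22180 genes, 16.3% and 20.9%. The macrophage, complement and MHC class II lists stand at the top and the cell cycle, replication and ribosome biogenesis lists at the bottom.

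Xist, the RNA that coats the inactive X chromosome in female cells, was chosen after its values were seen. It read 4.34, 4.06 and 5.10 in the Py8119 cultures, which is background, and 9.44, 9.24, 9.03, 9.16 and 9.35 in the tumours, a difference of 4.74 ± 0.20 (adjusted p = 1.23e-07). Py117 cultures, by contrast, held it at 9.68 ± 0.25 (SD, n = 3) and Py117 tumours at 11.17 ± 0.24 (SD, n = 5). Of these groups the Py8119 cultures alone were at background, and every Py8119 tumour lay far above every culture. Whether the Xist signal of the tumours comes from host cells was not tested.

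Antigen presentation genes rose across both classes. In the MHC class II list 10 of 12 rose (median 2.03). The class II chain gene H2-Ab1 read 6.20, 5.55 and 5.66 in the cultures and 10.77, 10.95, 10.67, 11.17 and 11.27 in the tumours (5.16 ± 0.18). Its partner H2-Aa rose by 4.02 and H2-DMa, which loads peptides, by 2.74. None of the 12 was clearly expressed in culture. Class I genes, in contrast, were expressed by the cultures: 12 of the 16 measured were in the expressed class and 6 clearly so. Of these 16, 15 rose and none fell, with a median of 1.05. H2-K1, a classical class I heavy chain, read 8.68, 8.31 and 8.10 in the cultures and 9.68, 10.04, 9.98, 10.33 and 10.23 in the tumours (1.68 ± 0.17). Psmb8, a subunit of the immunoproteasome, rose by 1.65, the peptide transporter gene Tap1 by 1.54 and H2-T23 by 1.46. Tumour 4 was the highest for H2-K1, Psmb8, Tap1 and H2-T23.

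Most interferon-stimulated genes rose. Of 23 genes of the type I list, 20 rose and none fell (median 1.07). The antiviral genes Oasl2, Zbp1, Ifih1 and Rtp4 rose by 2.37, 1.99, 1.97 and 1.82. Of 10 GTPase genes that interferon gamma induces and that attack vacuoles of parasites, 9 rose (median 1.93). Gbp7 read 6.22, 5.41 and 5.02 in the cultures and 8.75, 8.63, 8.52, 8.51 and 8.68 in the tumours (3.07 ± 0.22). Igtp read 4.64, 5.10 and 3.80 and then 6.77, 7.06, 7.38, 7.61 and 7.38 (2.73 ± 0.27). Irgm2 read 4.42, 3.86 and 4.22 and then 6.46, 6.41, 6.86, 7.0 and 6.90 (2.56 ± 0.17). Each tumour was above each culture for these genes, as for 16.7% of all genes, and Iigp1 rose by 2.93 as well.

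The promoters of these GTPase genes were searched for a motif. The interferon-stimulated response element, searched on both strands of the 250 bases before the start as GAAA, any 2 bases and GAAA again, was present in all 6 GTPase promoters matched to RefSeq. It was present in 7 of 16 promoters of the type I list (43.8%) and in 3.04% of 27025 promoters. A match describes the letters in that window and shows no binding. The promoters of 3 of the genes given above are shown from RefSeq (GRCm38.p6), 5′ to 3′ on the strand of the gene, with the motif in capitals. They lie at chr3:142530086-142530335 (plus strand) for Gbp7, chr11:58199306-58199555 (plus) for Igtp and chr11:58214727-58214976 (plus) for Irgm2.
Gbp7: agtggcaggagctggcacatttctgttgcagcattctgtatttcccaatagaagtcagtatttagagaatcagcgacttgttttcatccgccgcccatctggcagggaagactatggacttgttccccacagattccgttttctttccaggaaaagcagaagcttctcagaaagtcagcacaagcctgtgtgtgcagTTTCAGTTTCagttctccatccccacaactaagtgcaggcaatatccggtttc
Igtp: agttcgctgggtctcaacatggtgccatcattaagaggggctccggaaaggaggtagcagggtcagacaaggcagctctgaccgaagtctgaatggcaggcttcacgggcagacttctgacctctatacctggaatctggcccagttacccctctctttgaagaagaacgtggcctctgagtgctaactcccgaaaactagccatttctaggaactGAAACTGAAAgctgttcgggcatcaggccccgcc
Irgm2: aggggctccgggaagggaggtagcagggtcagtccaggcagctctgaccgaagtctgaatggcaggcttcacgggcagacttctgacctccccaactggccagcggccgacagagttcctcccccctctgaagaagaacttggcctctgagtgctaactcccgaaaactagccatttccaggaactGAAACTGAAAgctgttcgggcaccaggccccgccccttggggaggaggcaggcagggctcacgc
The motif of Igtp lies 34 to 25 bases before the start, that of Gbp7 53 to 44 and that of Irgm2 64 to 55. Igtp and Irgm2 lie close together and their windows share long stretches, so their matches are not independent.

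Secreted signals moved in both directions. Of 29 chemokine genes, 17 rose and 4 fell. The shares over all genes were 16.3% higher and 20.9% lower, so falls were no more frequent among chemokines. Ccl12 has been given above, and Ccl6 (4.79) and Ccl17 (4.56) also rose from background. Ccl17, a chemokine that attracts T cells, went from 4.63, 4.85 and 5.12 in the cultures to 8.52, 9.41, 9.35, 9.59 and 10.26 in the tumours, with tumour 5 the highest. Ccl2, the main attractant of monocytes, was already expressed in culture and rose by 1.41 ± 0.17. Cxcl9, an attractant of T cells, rose by 1.89 ± 0.43, with tumours 3 and 4 above 8 and the others near 7. The 4 that fell were the neutrophil attractants Cxcl5 (-1.68), Cxcl1 (-1.36) and Cxcl3 (-0.51), and Cxcl10 (-0.50). Cxcl10 lost its call without culture 2 (-0.39, adjusted p = 0.0503) and in the fit of all 21 arrays (adjusted p = 0.397). Cxcl3 stayed within the background range, and its call ended without culture 2 (-0.42, adjusted p = 0.099) and without culture 1, tumour 2, tumour 3 or tumour 5.

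Of 36 cytokine and growth factor genes, 16 rose and 4 fell, or 7 after centring on the median. Falls were again no more frequent than the 20.9% over all genes, where 16.3% rose. Il18 rose by 2.89, Il1b by 2.59, Tgfb3 by 1.73 and Igf1 by 1.71. Lif (-0.97), Hbegf (-0.85), Vegfc (-0.56) and Pdgfa (-0.31) fell. Pdgfa lost its call without culture 1 (-0.31, adjusted p = 0.061) and without culture 3 (-0.28, adjusted p = 0.079). Csf1, the ligand of the macrophage receptor Csf1r, was high in both groups, at 10.94, 10.99 and 10.90 in the cultures and 10.87, 10.81, 10.65, 10.49 and 10.54 in the tumours. The tumours were all lower for Csf1, but the difference of -0.27 ± 0.11 was not called (adjusted p = 0.0728). It passed without tumour 1 (-0.32, adjusted p = 0.0377) and after centring on the median (-0.47, adjusted p = 0.00599).

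Of 18 checkpoint genes, 12 rose and 3 fell, against 16.3% and 20.9% of all genes, so the share of falls was not raised. Cd274, which encodes PD-L1, read 5.84, 5.44 and 6.27 in the cultures and 7.35, 7.29, 7.30, 7.15 and 7.23 in the tumours (1.42 ± 0.16). The macrophage genes Sirpa and Siglec1 rose by 3.52 and 3.40, and the ectonucleotidase gene Entpd1 by 3.09. Tigit, known as an inhibitory receptor of T and natural killer cells, went the other way: it read 9.10, 9.20 and 9.16 in the cultures and 5.55, 6.00, 5.77, 6.18 and 5.46 in the tumours, a difference of -3.36 ± 0.16 (adjusted p = 2.16e-07). The cultures, which hold no lymphocytes, thus gave a high signal for Tigit, and the tumours were close to the threshold. Pvr, which encodes a ligand of that receptor, fell by 0.72. Ido1 fell by 0.37, a call that ended without culture 2 (-0.27, adjusted p = 0.17) and without culture 1, tumour 2, tumour 3 or tumour 5. Of 16 complement genes, 11 rose and none fell, led by the C1q chains and the receptor gene C3ar1 (4.07).

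Rises among genes that the cultures clearly expressed were fewer. The largest was in Bgn, the proteoglycan biglycan, which read 7.73, 7.71 and 7.83 in the cultures and 11.36, 11.22, 11.26, 11.79 and 11.58 in the tumours (3.68 ± 0.13). Ccl9, a chemokine of myeloid cells, read 8.03, 7.97 and 7.86 and then 11.59, 11.60, 11.50, 11.66 and 11.68 (3.65 ± 0.08). The carbonyl reductase gene Cbr2 read 8.5, 8.53 and 8.68 and then 11.77, 11.55, 11.34, 10.76 and 10.84 (2.68 ± 0.22). For Cbr2 tumours 4 and 5 were the lowest, and for Bgn they were the highest. The lysosomal legumain gene Lgmn rose by 2.39, Cpq by 2.21, the interleukin 13 receptor gene Il13ra1 by 2.21 and the plasminogen activator gene Plat by 2.17. Brinp3 (2.11), Mxra8 (2.07) and the water channel gene Aqp1 (2.06) made up the first 10.

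Of 24 lysosomal genes 18 rose and 1, the protease gene Ctsl, fell (-0.73). After Ctss, the cathepsin genes Ctsc and Ctsh rose by 4.06 and 2.56. Of 19 targets of glucocorticoids and of FOXO factors, 11 rose and 2 fell, or 7 and 5 after centring on the median. Txnip, which binds thioredoxin and responds to glucose, changed most, from 5.82, 5.16 and 5.05 in the cultures to 10.90, 10.76, 10.77, 10.85 and 10.77 in the tumours (5.47 ± 0.16, adjusted p = 8.11e-09). The tumours were close to each other, and culture 1 was the highest of the cultures. Ccng2, Fbxo32 and Tsc22d3 rose by 2.06, 1.51 and 1.15. Klf9 (-0.58) and Cdkn1c (-0.41) fell, but without culture 3 neither was called (-0.55, adjusted p = 0.088, and -0.35, adjusted p = 0.057). Klf9 also lost its call without culture 1, culture 2 or tumour 3. Gas6, the ligand of the receptor Axl, rose by 2.98 ± 0.16, while Axl itself fell by 0.42 ± 0.08.

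Proliferation genes fell almost without exception. In the cell cycle list 23 of 25 fell and none rose (median -0.84). Mybl2, a transcription factor of dividing cells, read 10.08, 10.20 and 10.20 in the cultures and 8.35, 8.21, 8.24, 8.49 and 8.16 in the tumours (-1.87 ± 0.10). Cdc6, which licenses replication origins (-1.5), the centromere gene Cenpf (-1.32), the mitotic kinase gene Plk1 (-1.26) and the proliferation antigen gene Mki67 (-0.81) fell too. All 25 genes of the list were clearly expressed in culture, where 45.1% of genes fell. In the replication list 21 of 23 fell (median -0.92), with Mcm5, Mcm2, Mcm10 and Mcm3 at -1.5, -1.34, -1.32 and -1.32. Mcm5 read 11.20, 11.27 and 11.17 in the cultures and 9.74, 9.56, 9.69, 10.04 and 9.52 in the tumours, and tumour 4 kept the highest level. In the repair list 18 of 22 fell (median -0.73), among them the nuclease gene Exo1 (-1.35), Msh6 (-1.2), Fancb (-1.05) and Fancd2 (-1.03).

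E2F factors drive many genes of replication. The motif TTTCGCGC or GCGCGAAA was present in 3 of 19 promoters of the replication list (15.8%) and in 1 of 19 of the cell cycle list (5.26%), against 0.255% of all promoters. In the replication list Mcm5, Mcm6 (-0.82) and Rfc3 had it, and Rfc3 was not called (-0.15). Mcm2, Mcm10 and Mcm3, which fell, did not have it. The promoter of Mcm5 is shown as the member of the replication list that fell most, from chr8:75109259-75109508 (plus strand, RefSeq, GRCm38.p6), with the motif in capitals 153 to 146 bases before the start.
Mcm5: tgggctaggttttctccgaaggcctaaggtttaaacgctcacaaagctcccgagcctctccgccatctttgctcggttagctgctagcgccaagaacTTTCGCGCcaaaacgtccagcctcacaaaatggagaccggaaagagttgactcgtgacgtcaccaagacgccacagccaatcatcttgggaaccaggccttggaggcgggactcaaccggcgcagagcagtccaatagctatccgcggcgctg

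Most genes of ribosome production fell. In the list of MYC targets and ribosome biogenesis 21 of 24 fell and none rose (median -1.10). All 24 were clearly expressed in culture, where 45.1% of genes fell. Rrp12, needed to export and mature ribosomal subunits, read 9.41, 9.56 and 9.62 in the cultures and 7.34, 7.32, 7.24, 7.91 and 7.33 in the tumours (-2.10 ± 0.15). The ribosome assembly genes Bop1 (-1.52) and Nolc1 (-1.48) and the pyrimidine synthesis gene Cad (-1.37) fell. The E-box motif CACGTG was present in 3 of 19 promoters of this list (15.8%), against 6.05% of all promoters. Neither Nolc1 nor Cad had it. Pop1, a subunit of RNase P outside that list, fell by 1.92. In the list of ATF4 targets and amino acid genes 17 of 23 fell and 1, the stress gene Nupr1, rose (0.98). Among the falls were the cystine transporter gene Slc7a11 (-1.66), the leucine transporter gene Slc7a5 (-1.36), Chac1 (-1.26) and Mthfd2 (-1.12), of mitochondrial folate metabolism. The glutamine transporter gene Slc38a1 fell by 0.78 ± 0.10.

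The oxidative stress list had 11 of 16 lower and none higher (median -0.65). Nqo1, a quinone reductase under the control of NRF2, read 8.53, 8.52 and 8.67 in the cultures and 6.57, 6.13, 7.22, 6.69 and 6.44 in the tumours (-1.96 ± 0.20). Gclm, of glutathione synthesis, read 10.08, 10.20 and 10.09 and then 8.68, 8.48, 8.61, 8.65 and 8.46 (-1.55 ± 0.09). Gclm was even across tumours, whereas Nqo1 spread over 1 log2 unit with tumour 3 the highest. Gsta4 fell by 1.46. The motif searched for this list, TGAC, any 3 bases and GC, was present in 2 of 12 promoters (16.7%), against 10.1% of all promoters. Gclm had it, while Nqo1 and Slc7a11 did not. Of 22 proteasome genes 10 fell, a share near the 45.1% of clearly expressed genes, to which 20 of the 22 belong. Among them were Psmd1 (-0.73), Psmd11 (-0.72), Psmd2 (-0.69) and Psmb5 (-0.69). Psma5 rose by 0.67 at background level, a call that ended without culture 3 (0.47, adjusted p = 0.12), tumour 1 or tumour 2.

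Most genes of the YAP and TEAD list, which holds targets and members of the pathway, fell. YAP and its partner TAZ enter the nucleus in spread cells on stiff surfaces and act through TEAD factors. Of 18 measured genes of this list 14 fell and 3 rose (median -0.42). Of clearly expressed genes, to which 12 of the 18 belong, 45.1% fell. Without 1 array between 10 and 14 genes of the list fell, and with the replicate block 10. Ccn1, a secreted matrix signal and classical target, read 11.96, 12.04 and 12.08 in the cultures and between 9.97 and 10.35 in the tumours, with a median of 10.11 (-1.9 ± 0.10, adjusted p = 6.48e-07). Crim1 read 9.46, 9.43 and 9.50 and then 8.14, 7.72, 8.21, 8.06 and 7.83 (-1.47 ± 0.12). Ajuba, a LIM protein of the Hippo pathway, read 9.91, 9.71 and 9.82 and then 8.63, 8.52, 8.39, 8.60 and 8.53 (-1.28 ± 0.09). No tumour overlapped a culture for these genes. The same held for the falls of 21.5% of all genes and of 3204 of the 6539 clearly expressed genes. F3, the gene of tissue factor (-1.24), and Ankrd1 (-0.73) fell. Nuak2 (0.81), Tead2 (0.67) and the TAZ gene Wwtr1 (0.30) rose. The call of Wwtr1 ended without culture 1 (0.29, adjusted p = 0.063) and without culture 2, culture 3, tumour 2 or tumour 3, and centring on the median left it at 0.09.

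The TEAD motif GGAATG or CATTCC was found in 9 of 13 promoters of this list that matched RefSeq (69.2%), against 12.6% of all promoters. Those 9 include Wwtr1, which rose. The promoters of the leading members are shown in the same way, from chr3:145649986-145650235 (minus strand) for Ccn1, chr17:78199998-78200247 (plus) for Crim1 and chr14:54577662-54577911 (minus) for Ajuba.
Ccn1: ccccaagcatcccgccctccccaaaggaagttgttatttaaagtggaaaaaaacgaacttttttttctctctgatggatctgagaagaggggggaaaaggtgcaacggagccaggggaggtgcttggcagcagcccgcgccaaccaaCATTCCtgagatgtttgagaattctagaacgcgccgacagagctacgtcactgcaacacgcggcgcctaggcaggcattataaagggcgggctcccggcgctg
Crim1: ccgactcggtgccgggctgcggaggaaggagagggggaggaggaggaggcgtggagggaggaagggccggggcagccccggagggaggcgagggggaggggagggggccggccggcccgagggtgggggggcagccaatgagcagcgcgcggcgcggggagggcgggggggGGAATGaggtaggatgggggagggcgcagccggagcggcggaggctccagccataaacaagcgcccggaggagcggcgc
Ajuba: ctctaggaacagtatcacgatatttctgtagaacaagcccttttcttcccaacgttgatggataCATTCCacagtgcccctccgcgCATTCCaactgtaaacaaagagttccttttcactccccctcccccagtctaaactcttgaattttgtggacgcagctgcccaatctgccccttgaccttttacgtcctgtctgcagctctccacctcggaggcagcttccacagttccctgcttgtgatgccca
Ccn1 has the motif 103 to 98 bases before the start and Crim1 79 to 74, while Ajuba has it at 186 to 181 and again at 164 to 159. The same window of the YAP gene Yap1 also holds it. Yap1 fell by 0.28, a call that ended without culture 2 (-0.27, adjusted p = 0.0583) and without culture 3 (-0.29, adjusted p = 0.0513).

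In the contractile list 8 of 19 fell, a share near the 45.1% of clearly expressed genes, with Srf, the factor that controls these genes, at -1.12, Vcl at -0.96 and Myh9 at -0.62. The 1 member that rose was Acta2, the actin of smooth muscle and myofibroblasts, also a member of the pericyte list. In the mesenchymal list 4 of 18 rose and 5 fell, or 8 after centring on the median. Over all genes 16.3% rose and 20.9% fell. Of clearly expressed genes, to which 14 of the 18 belong, 45.1% fell. In this list Tgfbi rose most, followed by fibronectin (Fn1, 0.86), Zeb1 (0.56) and Itga5 (0.29). Snai2, a repressor of epithelial genes, read 10.48, 10.44 and 10.51 in the cultures and 9.63, 9.51, 9.38, 8.78 and 9.53 in the tumours (-1.11 ± 0.17), lowest in tumour 4. Foxc2 (-0.93), Msn (-0.54), Cdh2 (-0.53) and Axl fell less. Vim, the vimentin gene, was at 13.19, 13.23 and 13.15 in the cultures and 13.12, 13.08, 13.06, 13.13 and 13.06 in the tumours and was not called, although centring on the median took it to -0.31 (adjusted p = 0.0156). The call of Itga5 ended without culture 1 (0.28, adjusted p = 0.077) and without culture 3, tumour 1, tumour 3 or tumour 4.

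The steepest single fall was in U90926, which read 10.26, 10.41 and 10.21 in the cultures and 4.90, 4.99, 5.06, 5.21 and 5.34 in the tumours (-5.19 ± 0.11, adjusted p = 2.09e-09), and all tumours were under the threshold. Grem1, an antagonist of bone morphogenetic proteins, read 10.10, 10.37 and 10.29 and then 7.18, 6.98, 7.49, 7.01 and 7.18 (-3.09 ± 0.13). The potassium channel gene Kcnk5 read 7.99, 8.07 and 8.03 and then 5.53, 5.45, 5.94, 5.66 and 5.62 (-2.39 ± 0.11). Kcnk5 ended near the threshold, while Grem1 stayed well above it. Further falls were in Dsg1c (-2.28), Tnnt2 (-2.28), Slco4a1 (-2.16), the early response gene Ier3 (-2.0), Slc35f2 (-1.99) and the cytokine gene Il24 (-1.98). They were followed by the glypican gene Gpc1 (-1.97), Larp1b (-1.97), Nrn1 (-1.96), the heat shock gene Hspa1b (-1.9) and Rnd1 (-1.88).

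To see what became of genes that mark the Py8119 cells, 10 genes were taken that were clearly expressed in Py8119 culture and at least 8-fold above Py117 cultures and tumours, a choice made after the data were seen. None rose, 5 fell and 5 were not called, with a median of -0.73. That share is near the 45.1% of all clearly expressed genes that fell, and the genes were chosen by culture values of the same contrast, so the count is a description. The fallers were Grem1, Ak5 (-1.74), Parvb (-1.43), Bcat1 (-1.42) and Flnc (-0.78). Tfap2b, a transcription factor, read 9.41, 9.19 and 9.15 in the cultures and 9.37, 9.26, 9.41, 8.94 and 9.20 in the tumours (-0.01 ± 0.12). The calcium-binding protein gene S100a4 differed by 0.03 ± 0.15, the enolase gene Eno3 by 0.14 ± 0.08, Crabp1 by -0.18 ± 0.21 and Sprr1a by -0.67 ± 0.32. Tumours and cultures thus overlapped for Tfap2b, while Grem1 was separated by more than 2 log2 units. Msln, the mesothelin gene, was also not called (-0.14 ± 0.14). After centring on the median both Msln (-0.35, adjusted p = 0.035) and Sprr1a (-0.88, adjusted p = 0.0334) were called lower, and after quantile normalization Eno3 was called higher (0.26, adjusted p = 0.03).

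Several metabolic and signalling lists were mixed, and the shares that fell in the glycolysis and oxidative phosphorylation lists were near the 45.1% of clearly expressed genes that fell. For these lists and those below, the shares over all genes were 16.3% higher and 20.9% lower. In the glycolysis and hypoxia list 13 of 26 fell, among them Car12 (-0.99) and Pfkl (-0.96), and 4 rose. Car9, a carbonic anhydrase induced by low oxygen, read 6.12, 4.72 and 6.27 in the cultures and 8.27, 7.86, 7.83, 7.55 and 7.65 in the tumours (2.13 ± 0.32). Ddit4 rose by 1.54, Bhlhe40 by 0.47 and Slc16a3 by 0.39, whose call ended without culture 3 (0.36, adjusted p = 0.064). Of 12 genes of fatty acid synthesis 8 fell, with Fasn at -0.92, Gpam at -0.79, Elovl6 at -0.68 and Me1 at -0.59; without culture 1 the count was 5. Of 19 cholesterol synthesis genes 4 fell, namely Lss (-0.84), Dhcr7 (-0.54), Srebf2 (-0.48) and Sqle (-0.37). That share is near the 20.9% of all genes, although 18 of the 19 were clearly expressed, where 45.1% fell. Tm7sf2 (0.99) and Nsdhl (0.32) rose. Nsdhl lost its call without any array but culture 1, for example without culture 3 (0.21, adjusted p = 0.18), and Sqle without 6 of the 8, for example without culture 1 (-0.29, adjusted p = 0.14). After centring on the median 10 of the 19 were lower and 1 higher.

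Of 21 oxidative phosphorylation genes 9 fell and 5 rose. The citrate synthase gene Cs (-0.67), Idh3a (-0.65) and Ndufv1 (-0.48) fell most. Ndufa4 rose by 0.70, and Ndufb5 (0.36), Sdhc (0.32), Atp5c1 (0.28) and Uqcrc2 (0.23) rose less. Without culture 3 none of these 4 was called, with adjusted p of 0.097 for Ndufb5, 0.164 for Sdhc, 0.077 for Atp5c1 and 0.124 for Uqcrc2. Without 1 array the count of rises was between 1 (without culture 3) and 4 (without tumour 1), and after centring it was 1. In the list of unfolded protein stress 2 of 17 rose, Dnajb9 (1.04) and Xbp1 (0.78), and 4 fell, namely Hyou1 (-0.83), Creld2 (-0.56), Ero1a (-0.45) and Calr (-0.30). These shares are near the 16.3% and 20.9% of all genes. Without culture 1 neither Ero1a nor Calr was called (-0.38, adjusted p = 0.063, and -0.29, adjusted p = 0.051), and Calr also lost its call without culture 2. Ero1a was also not called with the mean of its probe sets (-0.36, adjusted p = 0.124) or in the fit of all 21 arrays (adjusted p = 0.0966). After centring on the median 8 of the 17 were lower.

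Of 22 p53 targets 8 rose, among them Trp53inp1 (1.96) and Sesn1 (1.39), and 8 fell, among them Perp (-1.5) and Plk2 (-1.06). Of 20 immediate early genes 5 rose and 7 fell. Zfp36, which destabilizes messages of cytokines, rose by 1.39, Fos by 1.11, Btg2 by 0.72, Egr2 by 0.55 and Dusp1 by 0.50. Tumour 4 had the lowest mean of that list, and without tumour 4 the count of rises was 8. Egr2 was not called after quantile normalization (0.36, adjusted p = 0.0648). The call of Dusp1 ended without 6 of the 8 arrays, for example culture 2 (0.42, adjusted p = 0.12). In the clock list 3 of 17 rose and 6 fell, against 16.3% and 20.9% of all genes. Bhlhe41 rose by 1.34, and Cry1 (-0.92) and Ciart (-0.84) fell. Per1, which responds to glucocorticoids within the day, was unevenly higher, at 10.55, 9.14, 8.95, 9.33 and 9.84 in the tumours against 8.37, 8.60 and 8.46 in the cultures, with tumours 1 and 5 the highest (1.09 ± 0.31). Its call ended without culture 1 (1.03, adjusted p = 0.056) and without culture 3 (1.08, adjusted p = 0.0505).

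In the TGF-beta and BMP list 10 of 27 rose and 8 fell, or 5 without culture 3. The receptor gene Tgfbr1 rose by 1.16 and the protease gene Bmp1 by 1.14, beside Tgfb3, and Grem1 fell most. In the Wnt and Notch list 10 of 29 rose and 3 fell. Notch1 and its ligand Dll4 rose by 0.78 and 0.77. Wnt7b (-0.86), Nrarp (-0.71) and Fzd7 (-0.59) fell. Without culture 2, culture 3 or tumour 4 only 6 of these genes rose, and after centring 5.

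The change in Py8119 was then set against the change in Py117. The Py117 arrays were not part of the first comparison, but the 8 Py8119 arrays are the same, so the 2 comparisons are not independent. Over all genes the change in Py8119 was above that in Py117 for 1664 (7.5%) and below it for 1328 (5.99%), by a limma fit of the interaction over 16 arrays. In the macrophage list 11 of 28 genes changed more in Py8119 and 2 less. Msr1, for example, rose by 2.95 in Py117 and by 5.28 in Py8119 (difference of changes 2.33 ± 0.28, adjusted p = 2.16e-05). Cybb, the oxidase of phagocytes, went the other way, with 6.10 in Py117 and 4.83 in Py8119 (-1.27 ± 0.21). In both lines nearly all genes of that list rose, 27 in Py8119 and 26 in Py117, where 12.4% of all genes rose and 18.3% fell.

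Interferon, vessel and fibroblast genes rose less in Py8119. All 10 interferon gamma GTPase genes had a smaller change, as had 20 of 23 type I genes, 12 of 16 class I genes, 14 of 20 endothelial genes, 18 of 21 fibroblast genes and 7 of 16 T cell genes. The median change of the GTPase list was 1.93 in Py8119 and 4.76 in Py117, and that of the type I list 1.07 and 3.22. Iigp1 rose by 2.93 in Py8119 and 7.24 in Py117, with a difference of -4.31 ± 0.45 (adjusted p = 4.32e-06). Cxcl10 fell by 0.50 in Py8119 and rose by 3.55 in Py117 (-4.05 ± 0.59), and Cxcl9 rose by 1.89 and 5.78 (-3.89 ± 0.65). Dcn rose by 4.28 and 6.70 (-2.42 ± 0.37), whereas Postn rose more in Py8119, by 5.77 against 4.50 (1.27 ± 0.26). Col4a1 and Col4a2 fell in Py8119 and rose in Py117, by 2.11 and 1.06 (differences -3.28 ± 0.29 and -2.54 ± 0.24).

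**Figure D4:**
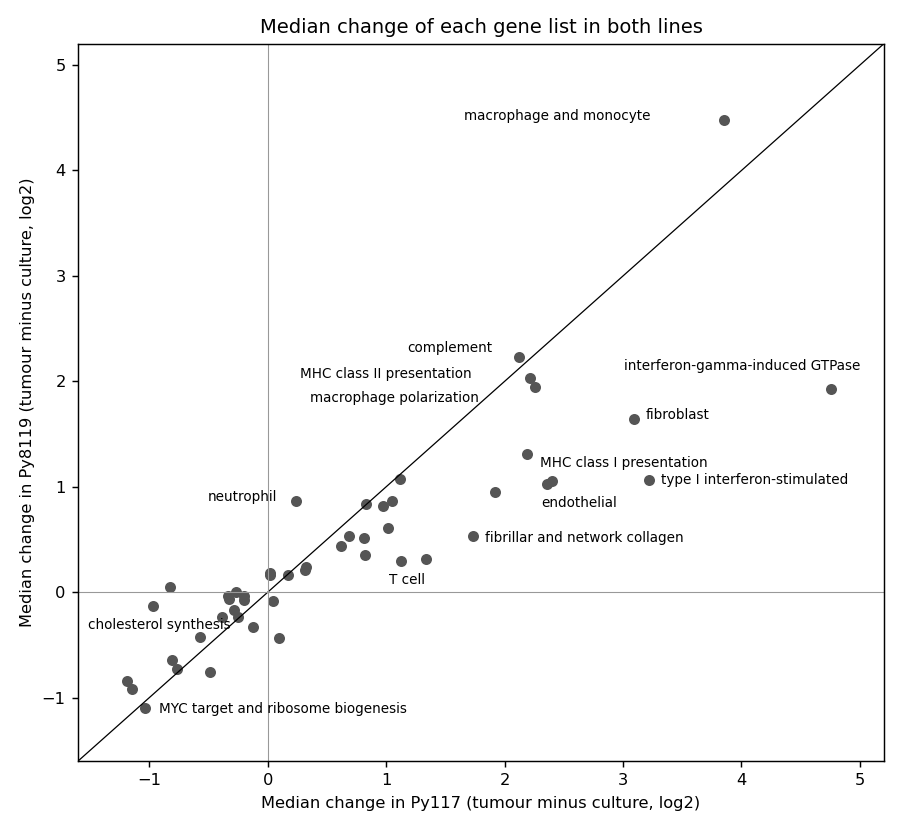
Median tumour minus culture difference (log2) of each gene list with at least 5 measured genes in Py117 (horizontal axis) and in Py8119 (vertical axis), 1 point per list, with the diagonal of equal change. The interferon gamma GTPase list lies far under the diagonal (1.93 against 4.76) and the macrophage list above it (4.48 against 3.86).

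Of the 5 genes with the largest difference in each direction, predicted and receptor genes left out, 6 of 10 were called in Py117 and not in Py8119. Bpifb4 was not called in Py8119 (-0.09) and fell by 5.26 in Py117 (difference 5.17 ± 0.26), and Bpifb3 behaved alike (-0.01 and -3.97, difference 3.96). The cytokine gene Tslp was not called in Py8119 (0.24) and fell by 4.82 in Py117 (5.06 ± 0.29). Dynap fell in both lines (-1.04 and -6.15, difference 5.11 ± 0.30). Car9 rose in Py8119 and fell by 2.09 in Py117 (4.22 ± 0.57, adjusted p = 7.17e-05).

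On the other side, Retnla was not called in Py8119 and rose by 6.01 in Py117 (-5.32 ± 1.04). Gbp4, a guanylate-binding protein gene, rose by 0.53 and 5.46 (-4.93 ± 0.78), and its small rise in Py8119 was not called without culture 1 (0.41, adjusted p = 0.082) or culture 3 (0.43, adjusted p = 0.082). Scrg1 was not called in Py8119 (0.10) and rose by 5.02 in Py117 (-4.92). Thrsp, a lipid synthesis gene, was not called in Py8119 (-0.31) and rose by 4.57 in Py117 (-4.88). Capn6 rose in both lines, by 1.13 and 5.72 (-4.60 ± 0.39).

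Several genes that the cultures expressed differed as well. Csf1 fell by 1.71 in Py117, against the uncalled -0.27 in Py8119 (difference 1.44 ± 0.18, adjusted p = 3.36e-05). Slc38a1 fell in Py8119 and rose by 2.37 in Py117 (-3.14 ± 0.26), and Snai2 likewise fell and rose by 0.74 (-1.85 ± 0.25). Grem1 was low in both Py117 groups, with means of 6.10 ± 0.41 and 6.12 ± 0.46 (SD), and its difference of changes was -3.11 ± 0.31. Msln fell by 3.12 in Py117 (2.97 ± 0.25) and Ankrd1 fell there too (-3.65, difference 2.91 ± 0.27). Cdh1 was not called in Py117 (-0.10, difference 1.46 ± 0.23), where it was high in both groups. With the mean of all its probe sets the difference was 0.70 (adjusted p = 0.0528). Zeb1 rose less in Py8119 (-1.03 ± 0.19). Cd274 did too (-1.40 ± 0.42, adjusted p = 0.0362), but that difference lost its call without any 1 of 10 of the 16 arrays, for example Py8119 culture 3 (-1.19, adjusted p = 0.109). In the cholesterol list 12 of 19 genes had a change above that of Py117, where 18 of the 19 fell. In the cell cycle and replication lists 2 of 25 and 2 of 23 genes had a change above that of Py117, and none had a change below it. The shares above are near the 7.5% of all genes, and 5.99% of all genes were below.

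Tumours 4 and 5 had the highest means of the fibroblast, collagen and matrix lists. The mean of the fibroblast list was 7.81, 7.77, 7.91, 8.41 and 8.17 in tumours 1 to 5, against 6.12 to 6.23 in the cultures. Tumour 4 was the highest, followed by tumour 5. Col12a1 read 7.56, 7.05, 7.29, 9.02 and 8.41, and Lox 6.56, 6.07, 6.39, 8.19 and 7.33. Acta2 read 8.17, 7.94, 7.91, 9.38 and 9.07, again with tumours 4 and 5 above the others. The macrophage list ran from 9.38 to 9.59 with tumour 1 the highest, so that tumours 4 and 5 were at its lower end. The replication list was at 8.99 in tumour 4 and between 8.67 and 8.72 in the others, while the cultures were between 9.57 and 9.65. Whether the share of host tissue or the cancer cells differ between these tumours was not tested.

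**Figure D5:**
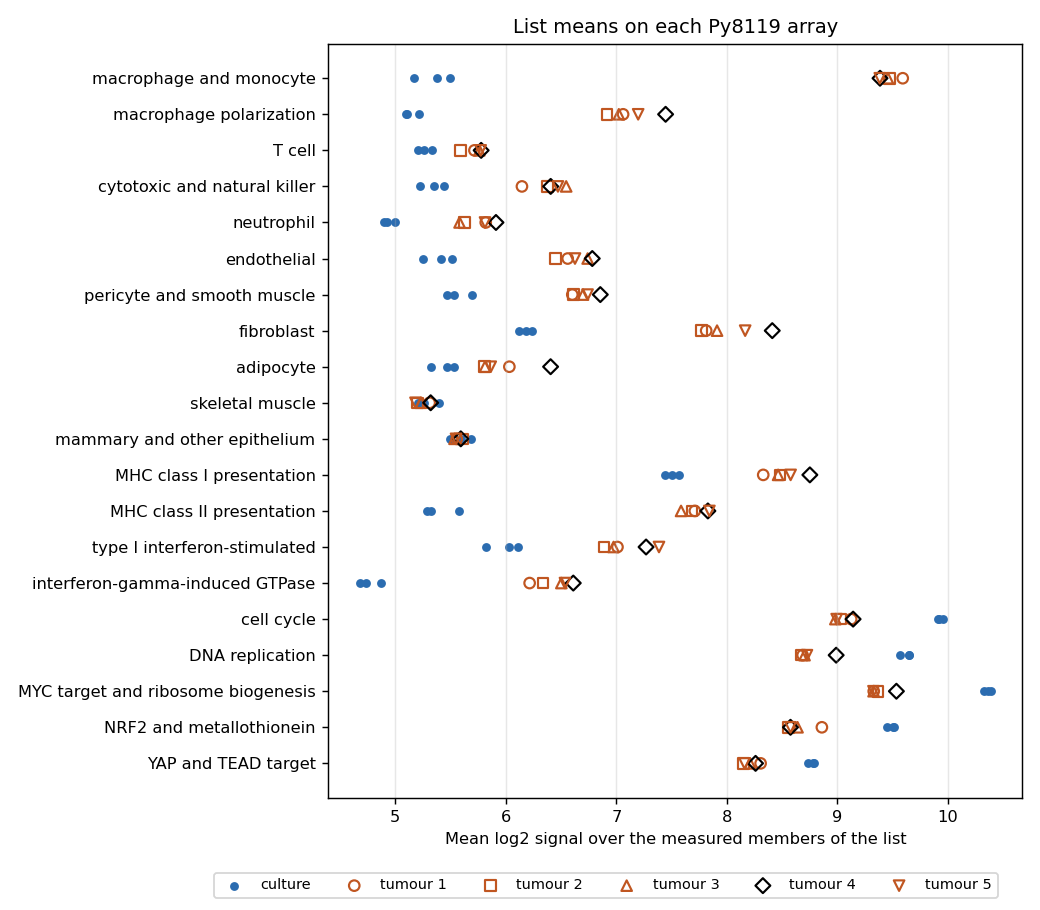
Mean log2 signal over the measured members of 20 gene lists on each of 3 Py8119 cultures (filled) and 5 Py8119 tumours (open symbols, tumour 4 in black). Tumours and cultures are apart for the macrophage, interferon and replication lists and overlap for the skeletal muscle and epithelial lists; tumour 4 is highest for the fibroblast list at 8.41.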

How the data were processed

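Total RNA of cultured cells and tumours was labelled with the Affymetrix WT PLUS kit and hybridised to whole-transcript mouse arrays, per the labels. The deposited table holds log2 signals of 41345 probe sets, and the submitters' processing notes name RMA and limma without versions. RMA shares values between arrays and compresses low signals, so differences of genes near background are understated. Of the probe sets, 23521 carried 1 gene symbol, 1814 several and 16010 none in the platform annotation. A gene with several probe sets was represented by the one brightest on average across all 21 arrays, which gave 22180 genes.

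A linear model with moderated errors (limma 3.58.1, R 4.3.3) compared tumours with cultures over the 8 arrays of a line, and the change in Py8119 with that in Py117 by an interaction over 16 arrays. A gene was called where its p, adjusted by Benjamini and Hochberg's method across the whole table, was below 0.05. Precision is limited by the number of arrays. The step was tested on simulated data. Alternatives were other scalings, weights, priors, probe set rules, filters and thresholds, a replicate block and leaving out each array.

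Named genes were the 15 largest rises from background, the 15 largest rises and 20 largest falls of expressed genes, up to 4 genes with the largest called change per list, any member needed to account for a count of 5 or fewer, the 5 largest differences from Py117 each way, and 18 genes of interest. Predicted genes, small RNAs and receptor genes were left out. Members and lists were chosen with earlier results of these data known. The 10 largest rises of clearly expressed genes and the genes that mark the line were added after the data were seen. Adipoq, Cybb, Itgam, Marco, Mki67, Nos2, Tyrobp, Yap1, Ptprc, Xist, Col4a3, Col4a4, Col4a5 and Col4a6 fall outside the rule and were named after their values were seen. Promoters came from RefSeq (GRCm38.p6), 250 bases before the start.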

Additional observations from a re-analysis of the deposited data

Results flagged for a closer look

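Single tumours stood apart from the other four for some genes and lists, by Dixon's test at 95%. Of 371 groups tested 16 were flagged, and chance flags about 1 in 20 groups. Tumour 4 was high for the replication list (8.99), the repair list (7.86) and the list of MYC targets and ribosome biogenesis (9.54), and for Rrp12 (7.91), Psmd1 (10.1), Eomes (6.23) and Adipoq (5.47). In the same tumour Slc38a1 was at 10.24 and Scrg1 at 4.10. Tumour 1 stood apart for the NRF2 and metallothionein list (8.86), Slc7a11 (5.88), Cpq (10.09) and Capn6 (5.54). Tumour 3 stood apart for Aqp1 (10.79) and H2-DMa (8.39), and tumour 5 for the Wnt and Notch list (6.61).

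The change from culture to tumour differed between the lines, by the test of the interaction, for 28 of the genes named. Values are the change in Py8119 minus that in Py117. The change in Py8119 was above that in Py117 for Bpifb4 (5.17), Dynap (5.11), Tslp (5.06), Car9 (4.22), Bpifb3 (3.96), Msln (2.97), Ankrd1 (2.91), Msr1 (2.33), Cdh1 (1.46), Csf1 (1.45) and Postn (1.27). The change was below that in Py117 for Retnla (-5.32), Gbp4 (-4.93), Scrg1 (-4.92), Thrsp (-4.88), Capn6 (-4.60), Iigp1 (-4.31), Cxcl10 (-4.05) and Cxcl9 (-3.89). The same held for Col4a1 (-3.28), Slc38a1 (-3.14), Grem1 (-3.11), Col4a2 (-2.54), Dcn (-2.42), Snai2 (-1.85), Cd274 (-1.40), Cybb (-1.27) and Zeb1 (-1.03).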

How the results depend on the processing

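Calls near background depend on the scaling, the threshold and the number of arrays. With every array centred on its median, 2358 genes were higher and 9046 lower in Py8119 tumours, 2243 background genes were lower, and 1473 expressed genes were higher and 5747 lower. A 2-fold minimum left 1082 higher and 475 lower, of which 332 and 19 were background genes and 522 and 437 expressed genes. An adjusted p under 0.01 left 509 background genes higher and 182 lower, and 962 and 712 genes whose change was above or below that in Py117. With dim genes left out, 236 background genes were higher and 2 lower, since fewer such genes were tested. With the background threshold at the 90th percentile of receptor genes 362 background genes were higher, and at the 99th percentile 1722. Among clearly expressed genes, a class added after the data were seen, 998 were higher.

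Without 1 array, 3114 to 3466 genes were higher and 3778 to 4542 lower. Background genes numbered 669 to 767 higher and 378 to 685 lower, expressed genes 1964 to 2294 higher and 3188 to 3724 lower, and 1283 to 1858 and 998 to 1790 genes changed more or less than in Py117. With the replicate block 2715 genes were higher and 3286 lower, and 265 background genes were lower. The main fit used no pairing by replicate number. Deviations of same-numbered samples correlated between -0.08 and 0.03, and 1 of 3 tumours correlated best with its own number. With so few pairs these values cannot exclude a link between same-numbered samples. Of 349 results for named genes, 295 kept their side of the threshold in every alternative, 47 lost a call at least once, 7 gained a call at least once and 0 reversed.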
